A study of Mus musculus with 8 samples.

Results

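The expression of 9 genes of retinoic acid synthesis, transport, sensing and response was examined in mouse embryonic stem cells (ESCs). The genes are *Aldh1a2*, *Dhrs3*, *Crabp1*, *Crabp2*, *Rara*, *Rarb*, *Rarg*, *Cyp26a1* and *Stra8*. They were chosen by name, as the entries of the deposited expression table that carry 1 of these symbols. All 9 were found among the 50901 genes of the table, with 1 entry each on a main chromosome. The data are RNA-seq of 8 libraries from 2 lines derived from E14, a mouse ESC line, and ask how expression differs when BAZ2A, a chromatin protein, lacks its RNA-binding TAM domain.

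The line ESC + F/H-BAZ2ArWT, with 4 libraries, expressed a Flag- and HA-tagged wild-type BAZ2A from a transgene that resists the siRNA and was inserted by the piggyBac transposase. The line ESC + F/H-BAZ2ArΔTAM, also with 4 libraries, expressed the same construct without the TAM domain. Cells of both lines were grown in LIF/2i, which keeps ESCs in the ground state, and all 8 libraries come from cells that received siRNA-*Baz2a* against the endogenous transcript 3 days before collection. The lines were raised from single-cell clones, so an effect of the deletion and a difference between separately derived lines cannot be told apart. The labels do not say whether the 4 libraries of a line came from separate cultures, and p-values measure only the spread between these libraries.

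Retinoic acid is made from vitamin A: retinol is taken up and oxidised to retinal, and retinaldehyde dehydrogenases then oxidise retinal to retinoic acid. Inside the cell, retinoic acid is carried by small binding proteins, acts through nuclear receptors (RARs, paired with RXRs on DNA) and is broken down by CYP26 enzymes. In cultured ESCs it is a classical inducer of differentiation, and in the embryonic germ line it induces *Stra8* and the entry into meiosis.

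RARs bind pairs of a short half-site, and the start-site windows of *Stra8*, *Cyp26a1* and *Rarb* are shown because *Stra8* changed most among the 9 genes while the other two hold such a pair. Windows of 300 bases, from 250 before to 50 after an annotated start, came from RefSeq (GRCm38.p6) and matched 8 of the 9 genes, all but *Crabp2*, with 14 windows in all. The half-sites searched were the consensus AGGTCA and its variants, which read AGTTCA in 1 case, GGGTCA in another and GGTTCA in the last. Matches on either strand are in capitals. Each window is written 5′ to 3′ on the strand of its gene, chr6:34920698-34920997 on the plus strand for *Stra8*, chr19:37697558-37697857 on the plus strand for *Cyp26a1* and chr14:16575427-16575726 on the minus strand for *Rarb*.
Stra8: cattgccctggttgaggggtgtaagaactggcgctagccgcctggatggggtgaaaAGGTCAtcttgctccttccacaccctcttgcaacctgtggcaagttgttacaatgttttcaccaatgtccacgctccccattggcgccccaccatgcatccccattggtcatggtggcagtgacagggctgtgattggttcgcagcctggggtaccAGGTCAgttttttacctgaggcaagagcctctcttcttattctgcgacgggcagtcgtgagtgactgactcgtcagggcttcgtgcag
Cyp26a1: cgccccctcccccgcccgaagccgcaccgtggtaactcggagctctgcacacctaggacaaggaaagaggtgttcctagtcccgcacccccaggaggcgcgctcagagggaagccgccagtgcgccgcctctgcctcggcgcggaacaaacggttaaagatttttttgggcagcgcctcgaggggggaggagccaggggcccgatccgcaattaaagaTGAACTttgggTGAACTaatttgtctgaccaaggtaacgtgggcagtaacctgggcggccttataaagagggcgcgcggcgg
Rarb: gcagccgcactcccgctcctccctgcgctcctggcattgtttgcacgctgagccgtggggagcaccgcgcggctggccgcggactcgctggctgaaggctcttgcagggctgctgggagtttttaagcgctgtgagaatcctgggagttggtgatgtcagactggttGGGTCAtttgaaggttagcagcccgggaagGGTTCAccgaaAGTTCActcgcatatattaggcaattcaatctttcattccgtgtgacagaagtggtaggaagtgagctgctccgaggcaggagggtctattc
The *Stra8* window held 2 half-sites that did not form a repeat spaced by 1, 2 or 5 bases. The *Cyp26a1* and *Rarb* windows each held 1 direct repeat of half-sites spaced by 5 bases. It lay from 32 to 16 bases before the start of *Cyp26a1*, on the strand opposite to the gene (chr19:37697776-37697792), and from 53 to 37 bases before the start of *Rarb*, on the strand of the gene (chr14:16575513-16575529). Both repeats are written here on the strand that carries them.
Cyp26a1 repeat: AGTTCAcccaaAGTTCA
Rarb repeat: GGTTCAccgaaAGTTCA
Of all 32851 windows of this length, 43.7% held at least 1 half-site and 0.0974% a direct repeat spaced by 5, while 0.268% held 1 spaced by 2 and 0.222% 1 spaced by 1. The windows of *Aldh1a2*, *Crabp1* and *Dhrs3* held 0 half-sites, the 4 windows of *Rara* between 0 and 4 and the 2 of *Rarg* 0 or 1, none of them in such a repeat. The RefSeq starts of *Stra8* and *Rarb* lie inside the span that the expression table gives for the gene. A match describes the letters of the window and is not a measurement of binding.

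The deposited RPKM were per kilobase of the genomic span of each gene, introns included, and were multiplied here by that span to give RPM, reads scaled to the depth of the library but not to gene length. From the step of the values, between 6.59 M and 8.70 M reads per library fell on genes, of library totals between 43.8 M and 58.1 M. *Baz2a*, whose reads come from the transgene and the endogenous gene together, had 396 ± 20.0 RPM (SD, n = 4) in ESC + F/H-BAZ2ArWT and 689 ± 31.1 RPM (SD, n = 4) in ESC + F/H-BAZ2ArΔTAM, a log2 fold change of 0.80 (SE, standard error, 0.036, limma, Benjamini-Hochberg adjusted p = 2.70e-13). The amount of *Baz2a* RNA thus differed between the lines along with the deletion, and its part in the results was not tested. The libraries expressed ESC markers, whose sum over 8 genes ran from 1086 to 1098 RPM in ESC + F/H-BAZ2ArWT and from 949 to 1011 RPM in ESC + F/H-BAZ2ArΔTAM.

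Of the 9 genes, 7 reached a mean of 0.2 RPM, about 10.1 reads in the median library, and were tested with limma on log2(RPM + 0.05) among 12634 genes. *Stra8*, *Aldh1a2*, *Dhrs3* and *Rarg* were higher in ESC + F/H-BAZ2ArΔTAM, *Crabp1* and *Rara* were lower, and *Crabp2* did not pass. *Cyp26a1* and *Rarb* lay under the filter. These counts are to be read against the whole table, where 43.4% of all genes tested reached an adjusted p under 0.05, with 21.5% higher and 21.9% lower in ESC + F/H-BAZ2ArΔTAM. The libraries of the lines did not overlap for 5 of the 7 genes, against 37.8% of all genes tested. The thresholds of the study, 0.58 or more in absolute log2 fold change with an unadjusted p under 0.05, were passed by *Stra8*, *Aldh1a2*, *Dhrs3* and *Crabp1*, 4 of 7, against 10.8% of all genes tested. The median log2 fold change of the 7 genes was 0.15, against -0.0046 over all genes tested. In bulk RNA, a change in the number of cells that express a gene and a change in RNA per cell cannot be told apart.

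**Figure D1:**
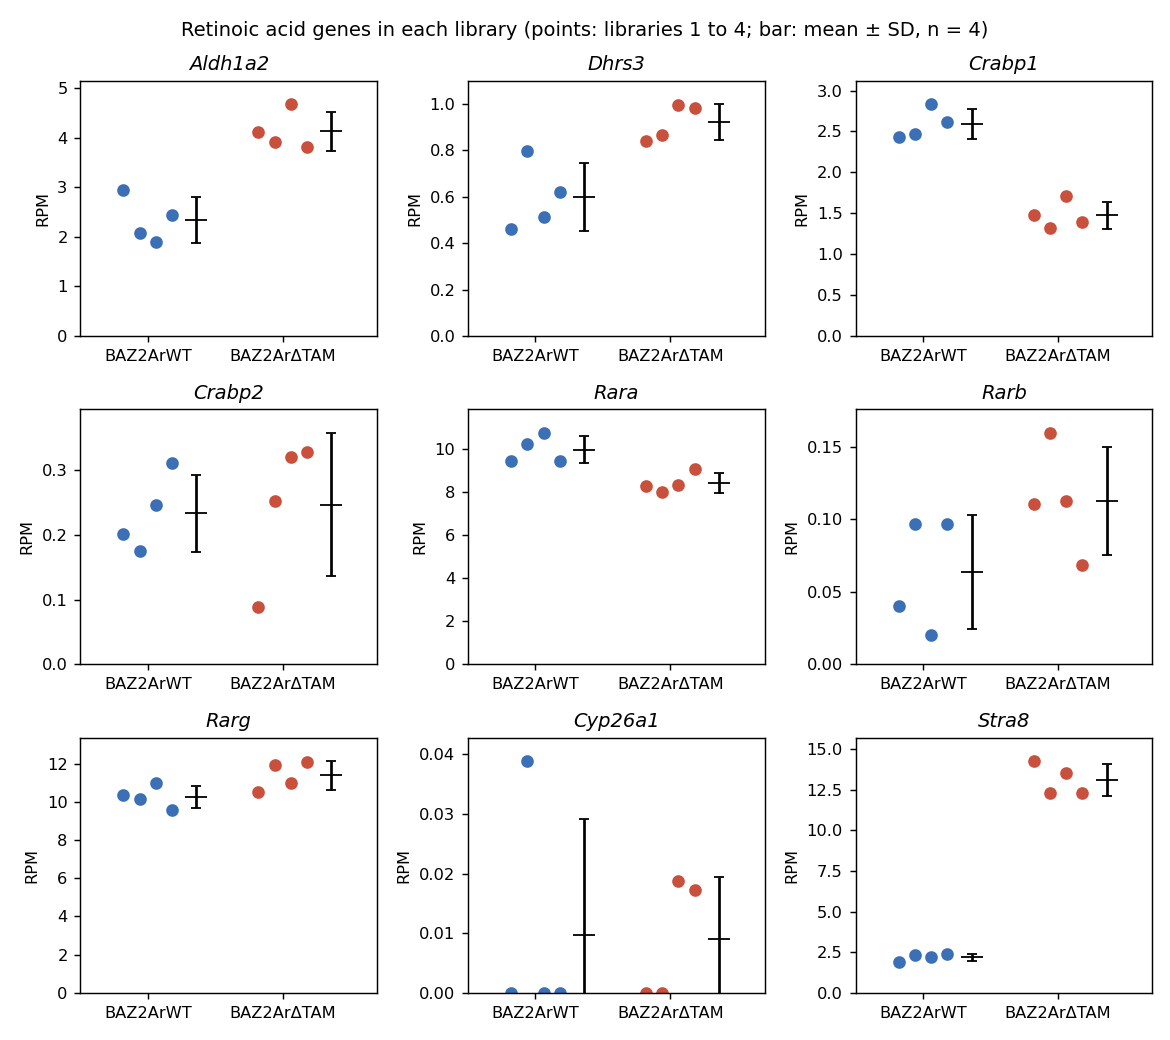
RPM (vertical axes, each from 0) of the 9 retinoic acid genes in the 4 libraries of ESC + F/H-BAZ2ArWT (blue) and of ESC + F/H-BAZ2ArΔTAM (red), with the mean and SD beside the points. *Stra8*, *Aldh1a2* and *Dhrs3* lie higher and *Crabp1* and *Rara* lower in every ESC + F/H-BAZ2ArΔTAM library, and *Cyp26a1* stays at or under 0.0388 RPM.

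Synthesis was represented by *Aldh1a2*, which encodes the retinaldehyde dehydrogenase that makes most retinoic acid in the early embryo, and it was higher without the TAM domain. *Aldh1a2* (ENSMUSG00000013584.5, chr9:71215789-71296243) had 2.94, 2.08, 1.89 and 2.44 RPM in ESC + F/H-BAZ2ArWT and 4.11, 3.90, 4.67 and 3.81 RPM in ESC + F/H-BAZ2ArΔTAM, from 92 to 146 and from 171 to 249 reads. The lowest ESC + F/H-BAZ2ArΔTAM library was above the highest ESC + F/H-BAZ2ArWT library. The means were 2.34 ± 0.461 and 4.12 ± 0.387 RPM (SD, n = 4), a log2 fold change of 0.82 (SE 0.11, 95% interval 0.59 to 1.06, limma, Benjamini-Hochberg adjusted p = 4.32e-06). On the same scale, 314 genes rose more. A single start-site window was listed for *Aldh1a2*, the one described above with 0 half-sites.

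*Dhrs3* encodes a reductase that returns retinal to retinol and thereby limits retinoic acid synthesis, and it was also higher. *Dhrs3* (ENSMUSG00000066026.14, chr4:144892827-144928209) had 0.463, 0.796, 0.513 and 0.620 RPM in ESC + F/H-BAZ2ArWT and 0.841, 0.867, 0.994 and 0.981 RPM in ESC + F/H-BAZ2ArΔTAM. The lines did not overlap, although ESC + F/H-BAZ2ArWT replicate 2, at 0.796 RPM, came close to the 0.841 RPM of ESC + F/H-BAZ2ArΔTAM replicate 1. The means were 0.598 ± 0.147 and 0.921 ± 0.0782 RPM (SD, n = 4), and the log2 fold change was 0.61 (SE 0.17, 95% interval 0.25 to 0.97, limma adjusted p = 0.00729). The change was larger than the spread between libraries, but it lay at the fold threshold of the study: without ESC + F/H-BAZ2ArWT replicate 1 it was 0.50 and without replicate 3 it was 0.55, and without ESC + F/H-BAZ2ArΔTAM replicate 3 or 4 it was 0.570 or 0.576. The limma adjusted p of *Dhrs3* ran from 0.00208 to 0.0314 over the 8 fits that each lack 1 library.

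The binding proteins CRABP1 and CRABP2 carry retinoic acid in the cytoplasm, CRABP1 being linked to its breakdown and CRABP2 to its delivery to RARs. *Crabp1* was lower in ESC + F/H-BAZ2ArΔTAM, and *Crabp2* was too low to compare well. *Crabp1* (ENSMUSG00000032291.8, chr9:54764748-54773110) had 2.43, 2.47, 2.83 and 2.62 RPM in ESC + F/H-BAZ2ArWT and 1.48, 1.32, 1.71 and 1.39 RPM in ESC + F/H-BAZ2ArΔTAM, from 121 to 138 and from 58 to 91 reads. Each ESC + F/H-BAZ2ArΔTAM library was below each ESC + F/H-BAZ2ArWT library. The means were 2.59 ± 0.182 and 1.48 ± 0.167 RPM (SD, n = 4), a log2 fold change of -0.79 (SE 0.11, 95% interval -1.02 to -0.57, limma adjusted p = 4.56e-06), and 366 genes fell more.

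*Crabp2* (ENSMUSG00000004885.5, chr3:87948666-87953376) had 10, 9, 12 and 16 reads in ESC + F/H-BAZ2ArWT and 4, 11, 17 and 19 reads in ESC + F/H-BAZ2ArΔTAM. The lines overlapped, and the first ESC + F/H-BAZ2ArΔTAM library was the lowest of all 8. The log2 fold change of *Crabp2* was -0.014 (95% interval -0.64 to 0.62, limma adjusted p = 0.977), an interval that reaches from 0.640-fold to 1.53-fold. Without ESC + F/H-BAZ2ArΔTAM replicate 1 the log2 fold change was 0.32 (limma adjusted p = 0.352). *Crabp1* took 91.8 ± 1.69% (SD, n = 4) of the reads of the pair in ESC + F/H-BAZ2ArWT and 85.9 ± 5.82% (SD, n = 4) in ESC + F/H-BAZ2ArΔTAM, a difference that the two-sided exact permutation test did not separate from the spread (p = 0.143).

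Among the receptors, *Rara* was lower and *Rarg* slightly higher in ESC + F/H-BAZ2ArΔTAM, while *Rarb* was close to 0 in both lines. *Rara* (ENSMUSG00000037992.16, chr11:98927818-98974942) encodes the broadly expressed RARα. It had 9.47, 10.3, 10.8 and 9.46 RPM in ESC + F/H-BAZ2ArWT and 8.30, 8.03, 8.37 and 9.11 RPM in ESC + F/H-BAZ2ArΔTAM, from 352 to 529 reads over all libraries. The lines did not overlap, but the gap between the closest libraries was small beside the spread within each line. The means were 10.00 ± 0.646 and 8.45 ± 0.460 RPM (SD, n = 4), and *Rara* fell by 0.24 on the log2 scale (SE 0.059, 95% interval -0.36 to -0.12, limma adjusted p = 0.00235), or by 0.16 on the deposited RPKM with a pseudocount of 0.1 RPKM.

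*Rarg* (ENSMUSG00000001288.15, chr15:102234938-102257517) encodes RARγ. It had 10.4, 10.1, 11.0 and 9.59 RPM in ESC + F/H-BAZ2ArWT and 10.5, 11.9, 11.0 and 12.1 RPM in ESC + F/H-BAZ2ArΔTAM. The lines overlapped, with 3 ESC + F/H-BAZ2ArΔTAM libraries above every ESC + F/H-BAZ2ArWT library, replicate 3 by less than the rounding shown. The means were 10.3 ± 0.567 and 11.4 ± 0.747 RPM (SD, n = 4), and the log2 fold change was 0.15 (SE 0.057, 95% interval 0.029 to 0.27, limma adjusted p = 0.0415). This call rested on single libraries and settings. The adjusted p of *Rarg* from limma was 0.0667, 0.0854 or 0.121 without ESC + F/H-BAZ2ArWT replicate 1, 2 or 4 and 0.116 or 0.141 without ESC + F/H-BAZ2ArΔTAM replicate 2 or 4. It was 0.0618 with no filter, 0.0905 on the deposited RPKM and 0.103 without the mean-variance trend, while the log2 fold change remained between 0.12 and 0.18 over these settings and omissions.

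*Rarb* (ENSMUSG00000017491.9, chr14:16430839-16819156) encodes RARβ and is itself a classical retinoic acid target. It had 2, 5, 1 and 5 reads in ESC + F/H-BAZ2ArWT and 5, 7, 6 and 4 reads in ESC + F/H-BAZ2ArΔTAM. The lines overlapped. The means were 0.0637 ± 0.0393 and 0.113 ± 0.0372 RPM (SD, n = 4), a difference of 0.0493 RPM that the two-sided exact permutation test did not separate from the spread (p = 0.143, where 4 against 4 libraries cannot go below 0.029). Exons of *Rarb* overlap exons of *Top2b* on the opposite strand, which held from 421 to 780 reads per library, and whether the counting used strand is not stated. Without strand, reads of *Rarb* and *Top2b* in the shared exons cannot be told apart.

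The balance of the receptors shifted toward *Rarg*, while their sum differed by less than its spread. The 3 genes together had 20.3 ± 1.11 RPM in ESC + F/H-BAZ2ArWT and 19.9 ± 0.998 RPM in ESC + F/H-BAZ2ArΔTAM (SD, n = 4). *Rara* took 49.2 ± 1.05% of their reads in ESC + F/H-BAZ2ArWT and 42.4 ± 1.71% in ESC + F/H-BAZ2ArΔTAM (SD, n = 4), with the highest ESC + F/H-BAZ2ArΔTAM library at 43.8% and the lowest ESC + F/H-BAZ2ArWT library at 47.7%. The share fell by 6.77 percentage points, which in the two-sided exact permutation test gave p = 0.029, the smallest that 4 against 4 libraries allow. *Rarg* took 50.5 ± 1.15% and 57.0 ± 1.59% (SD, n = 4), and *Rarb* 0.319% and 0.570% on average.

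Breakdown was represented by *Cyp26a1*, which encodes the retinoic acid hydroxylase and is among the genes most strongly induced by retinoic acid in ESCs. *Cyp26a1* (ENSMUSG00000024987.6, chr19:37697808-37701528) had 2 reads in ESC + F/H-BAZ2ArWT replicate 2 and 1 read in each of ESC + F/H-BAZ2ArΔTAM replicates 3 and 4, with 0 reads elsewhere. Each line thus had 2 reads in all, and no fold change is given. A count of 0 in a library allows up to 3 reads, for counting error only. That is between 0.0517 and 0.0685 RPM, depending on the library. With 2 reads in each line, the data do not resolve a small difference between the line means. The exact permutation test of the difference of -0.000715 RPM gave p = 1 (two-sided).

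*Stra8*, a retinoic acid response gene named for its induction by retinoic acid and required for meiotic entry of germ cells, showed the largest change of the 9 genes. *Stra8* (ENSMUSG00000029848.11, chr6:34920163-34939344) had 93, 119, 107 and 122 reads in ESC + F/H-BAZ2ArWT and 644, 537, 719 and 712 reads in ESC + F/H-BAZ2ArΔTAM. In RPM these were 1.87, 2.31, 2.20 and 2.36 against 14.2, 12.3, 13.5 and 12.3. The lowest ESC + F/H-BAZ2ArΔTAM library lay far above the highest ESC + F/H-BAZ2ArWT library. The means were 2.19 ± 0.221 and 13.1 ± 0.979 RPM (SD, n = 4), a log2 fold change of 2.55 (SE 0.079, 95% interval 2.39 to 2.72, limma, Benjamini-Hochberg adjusted p = 4.91e-16), or 5.88-fold. Of all 12634 genes tested, 4 rose more. Over the 8 fits that each lack 1 library, *Stra8* rose by 2.48 to 2.59 on the log2 scale, and on the deposited RPKM, where the pseudocount of 0.1 is close to the *Stra8* level of 0.114 RPKM in ESC + F/H-BAZ2ArWT, it was 1.87.

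To order the genes by level, values were taken per kilobase of annotated exon (GENCODE release M21), in RPM per kilobase of exon. The shares and sums of reads or RPM given elsewhere are not scaled to exon length. In ESC + F/H-BAZ2ArWT the order was *Crabp1* at 3.23, *Rarg* at 2.41, *Rara* at 2.29, *Stra8* at 1.21, *Aldh1a2* at 1.03, *Dhrs3* at 0.204, *Crabp2* at 0.176, *Rarb* at 0.0121 and *Cyp26a1* at 0.00490. The libraries overlapped between the neighbours *Rarg* and *Rara*, *Stra8* and *Aldh1a2*, *Dhrs3* and *Crabp2*, and *Rarb* and *Cyp26a1*. In ESC + F/H-BAZ2ArΔTAM *Stra8* came first at 7.25, followed by *Rarg* at 2.67, *Rara* at 1.94, *Crabp1* at 1.84, *Aldh1a2* at 1.82, *Dhrs3* at 0.315, *Crabp2* at 0.186, *Rarb* at 0.0215 and *Cyp26a1* at 0.00454. Here the libraries overlapped only between the neighbours *Rara* and *Crabp1*, and *Crabp1* and *Aldh1a2*. *Stra8* moved from the 54.9th to the 92.0th percentile of the 12440 tested genes with an exon length, and *Crabp1* from the 79.9th to the 65.8th.

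**Figure D2:**
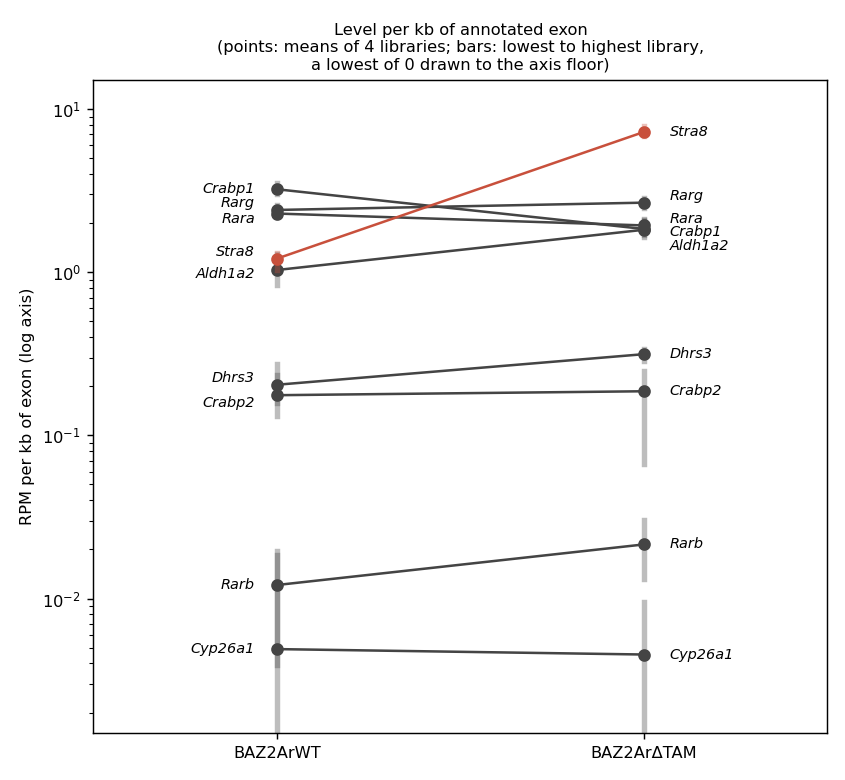
Mean level in RPM per kilobase of annotated exon (log axis) of each of the 9 genes in ESC + F/H-BAZ2ArWT and ESC + F/H-BAZ2ArΔTAM, with bars from the lowest to the highest of 4 libraries. *Stra8* (red) rises from the fourth place, at 1.21, to the first at 7.25, while *Crabp1* moves from the first place at 3.23 into the group of *Rara* and *Aldh1a2*.

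The rest of the pathway was read from 7 lists with 76 other symbols, of which 75 were in the table and 47 were tested. Of these, 6 were higher, 16 were lower and 25 did not pass. The 22 genes called are 46.8% of those tested, close to the 43.4% of all genes tested, and 12.8% were higher and 34.0% lower, against 21.5% and 21.9%. The filter bears on these counts, since 6 of the 47 genes reached a mean of 0.2 RPM in 1 line only, 5 of them in ESC + F/H-BAZ2ArWT and 1 in ESC + F/H-BAZ2ArΔTAM. Of the 41 that reached it in both lines, 5 were higher and 12 lower. The thresholds of the study were passed by 12 of the 47, all 6 genes that reached the filter in 1 line only among them, and by 6 of the 41 (14.6%), against 9.22% of all genes that reached it in both lines. Another 28 lay under the filter, and 7 genes had 0 reads in every library.

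Of 18 other genes of retinoic acid synthesis and retinal reduction, 8 were tested and 4 were lower, which is to be read against the 43.4% of all genes tested that were called and the 21.9% that were lower. In the other direction limma called 0, with 0 at an unadjusted p under 0.05 and 0 called by limma voom. Of the 4 lower genes, *Aldh1a3* and *Rdh12* reached the filter only through ESC + F/H-BAZ2ArWT, where they were higher. *Aldh1a3*, which encodes another retinaldehyde dehydrogenase, had 13 to 22 reads in ESC + F/H-BAZ2ArWT and 3 to 13 in ESC + F/H-BAZ2ArΔTAM, a log2 fold change of -1.10 (SE 0.31, limma adjusted p = 0.00625) that was -0.68 with a pseudocount of 0.2 RPM and kept its call with no filter (adjusted p = 0.0182), and *Aldh1a1* had 0 reads throughout. *Rdh12*, a retinol dehydrogenase gene, had 12 to 16 against 6 to 12 reads and a log2 fold change of -0.68 (limma adjusted p = 0.0420; -0.43 with a pseudocount of 0.2 RPM), a call that was lost with no filter (adjusted p = 0.126) and without any 1 of 6 libraries, ESC + F/H-BAZ2ArWT replicate 1, 2 or 4 or ESC + F/H-BAZ2ArΔTAM replicate 1, 3 or 4 (adjusted p between 0.0673 and 0.137). *Rdh10*, which encodes the main embryonic retinol dehydrogenase, showed a change of 0.031 (SE 0.22) on the log2 scale.

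Of 9 uptake and storage genes, 5 were tested, 1 was higher and 2 were lower, against 21.5% higher and 21.9% lower of all genes tested. The 1 higher gene was *Stra6*, the gene of the retinol uptake receptor and like *Stra8* named for induction by retinoic acid. It had 1 to 4 reads in ESC + F/H-BAZ2ArWT and 21 to 28 in ESC + F/H-BAZ2ArΔTAM, a log2 fold change of 2.36 (SE 0.28, limma adjusted p = 5.57e-07) that was 1.41 with a pseudocount of 0.2 RPM and 3.03 with 0.01 RPM. *Stra6* reached the filter only through ESC + F/H-BAZ2ArΔTAM, with means of 0.0540 and 0.472 RPM, and with no filter its limma adjusted p was 1.39e-06. Among breakdown genes, *Cyp26b1* and *Cyp26c1* had at most 5 reads in a library, and *Cyp2s1*, the 1 gene tested of 3, had 14 to 20 against 3 to 11 reads and a log2 fold change of -1.17 (SE 0.29, limma adjusted p = 0.00220). *Cyp2s1* reached the filter only through ESC + F/H-BAZ2ArWT, with means of 0.352 and 0.138 RPM, and its log2 fold change was -0.73 with a pseudocount of 0.2 RPM, while the call held with no filter (limma adjusted p = 0.00830).

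Of 8 RXR and orphan receptor genes, 5 were tested and limma called 0 of them, 1 (*Nr2c2*, log2 fold change 0.18) having an unadjusted p under 0.05 and 0 a call with limma voom, with *Rxra* at a log2 fold change of 0.12 (SE 0.075) and *Rxrb* at 0.011 (SE 0.068). All 12 corepressor and coactivator genes were tested, with 2 higher and 3 lower, 41.7% called against 43.4% of all genes tested. *Ncoa3*, a coactivator gene, rose from 38.1 ± 1.21 to 47.4 ± 0.933 RPM (SD, n = 4; log2 fold change 0.31, limma adjusted p = 3.59e-07).

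Of 17 further genes known to respond to retinoic acid, 11 were tested, 2 were higher (18.2%, against 21.5% of all genes tested) and 5 were lower (45.5%, against 21.9%), 1 of these 5 having reached the filter through ESC + F/H-BAZ2ArWT alone. *Tgm2*, the transglutaminase gene often used as a readout of retinoic acid, fell from 4.16 ± 0.183 to 2.07 ± 0.154 RPM (SD, n = 4), a log2 fold change of -0.99 (SE 0.088, limma adjusted p = 9.01e-09) that was -0.50 on the deposited RPKM with a pseudocount of 0.1 RPKM, near the *Tgm2* means of 0.138 and 0.0688 RPKM. *Stra8* thus went up while *Tgm2* went down and *Cyp26a1* and *Rarb* stayed near 0.

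**Figure D3:**
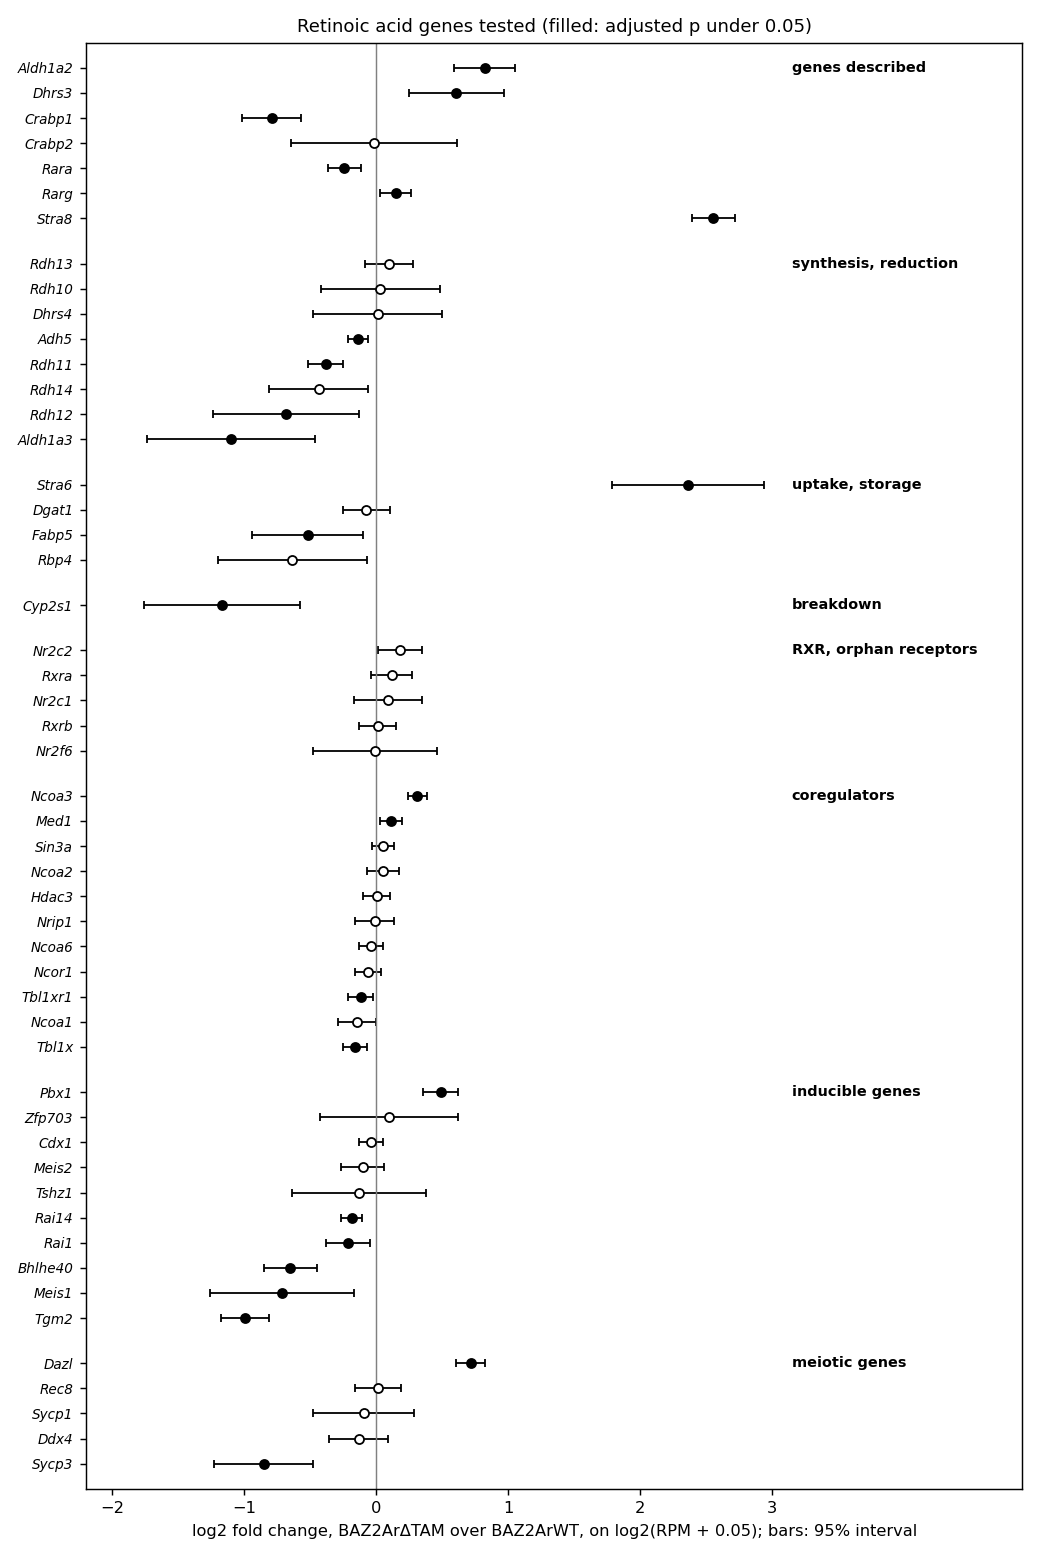
Log2 fold change, ESC + F/H-BAZ2ArΔTAM over ESC + F/H-BAZ2ArWT, on log2(RPM + 0.05), of the 7 tested genes of the 9 (top) and 44 of the 47 other pathway genes tested, with unadjusted 95% intervals from limma and filled points for an adjusted p under 0.05. *Stra8* at 2.55 and *Stra6* at 2.36 stand to the right of all others. Of the genes of synthesis and retinal reduction, those outside the 9 lie at or left of 0.098, while *Aldh1a2* lies at 0.82 and *Dhrs3* at 0.61.

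*Stra8* was also set beside genes of meiosis. Of 9 symbols, 5 were tested, 1 was higher and 1 was lower, 40.0% called against 43.4% of all genes tested. *Dazl*, a germ cell gene that germ cells need to respond to retinoic acid, rose from 11.7 ± 0.882 to 19.2 ± 0.522 RPM (SD, n = 4), a log2 fold change of 0.72 (SE 0.052, limma adjusted p = 4.92e-10). *Sycp3*, which encodes a component of the synaptonemal complex, fell from 0.998 ± 0.196 to 0.530 ± 0.100 RPM (SD, n = 4), a log2 fold change of -0.85 (SE 0.18, limma adjusted p = 5.91e-04). *Rec8*, the meiotic cohesin gene, had a log2 fold change of 0.013 (SE 0.085), and *Gm4969*, the listed name of the *Stra8* partner *Meiosin*, had 0 to 4 reads in ESC + F/H-BAZ2ArWT and 0 to 5 in ESC + F/H-BAZ2ArΔTAM.

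The genes whose pattern over the 8 libraries was closest to *Stra8*, by the Euclidean distance of log2(RPM + 0.05) centred on each gene's mean, were *Zscan4a* (distance 0.430), *Zscan4c* (0.507) and *Slc38a4* (0.579). Their log2 fold changes were 2.35, 2.31 and 2.27. The distance takes in the difference between the lines, so genes with a fold change of similar size come out close. Covariation within a line was not tested. *Zscan4a* and *Zscan4c*, close paralogs whose reads may be shared, are markers of 2-cell-like cells, a rare state of ESC cultures that resembles the 2-cell embryo. Each of 12 markers of that state, tested or not, was higher in every ESC + F/H-BAZ2ArΔTAM library than in any ESC + F/H-BAZ2ArWT library, and 0 of the 12 were at 0 in all libraries. Most of the 12 are copies of the *Zscan4*, *Tcstv* and *Usp17l* families, whose reads may be shared, so they are not 12 independent markers. Among all genes tested, 37.8% had no overlap in either direction. Of the 12, 11 were tested and called higher by limma, but 6 of these 11 reached the filter only through ESC + F/H-BAZ2ArΔTAM, so that count describes the choice of genes tested as well as the change. The 5 that reached the filter in both lines were all called higher, as were 21.5% of all genes tested. The summed level of the 12 ran from 1.87 to 2.64 RPM in ESC + F/H-BAZ2ArWT and from 11.6 to 13.6 RPM in ESC + F/H-BAZ2ArΔTAM, with the largest change for *Gm8300* (log2 fold change 2.76, limma adjusted p = 2.31e-10; 1.82 on the deposited RPKM). These markers differed between the lines in the same direction as *Stra8*, and their part in the *Stra8* result was not tested. Closest to *Crabp1* were *Lrrc34* (0.153), *Nr3c1* (0.159) and *Abca2* (0.190).

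**Figure D4:**
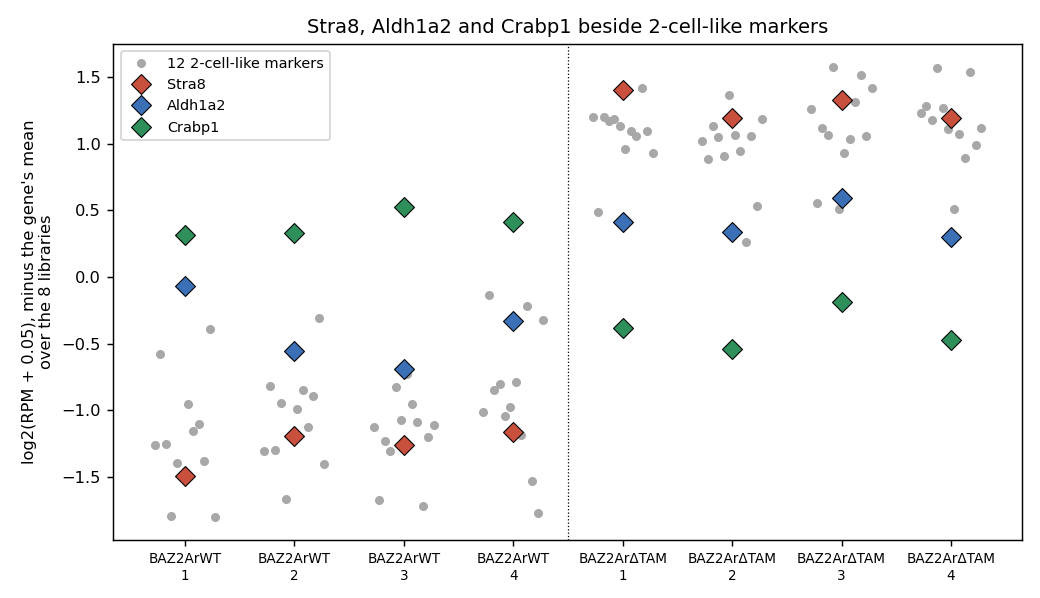
Log2(RPM + 0.05) minus the mean of each gene over the 8 libraries (vertical axis) in each library (horizontal axis), for *Stra8*, *Aldh1a2*, *Crabp1* and 12 markers of 2-cell-like cells (grey). *Stra8* lies among the grey points in both lines, with a log2 fold change of 2.55, *Aldh1a2* moves the same way by 0.82 and *Crabp1* the opposite way by -0.79.

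Markers of cell types that retinoic acid can induce were set beside the 9 genes, and their counts are to be read against the 43.4% of all genes tested that were called, 21.5% higher and 21.9% lower. Of 10 primitive endoderm markers, 3 were tested, 2 were lower and 1 did not pass, and the markers did not share a direction. The sum of the list was 49.4 to 52.0 RPM in ESC + F/H-BAZ2ArWT and 25.0 to 28.2 RPM in ESC + F/H-BAZ2ArΔTAM, most of it *Lama1* (log2 fold change -1.05, limma adjusted p = 2.41e-14). *Gata4* had 28 to 34 against 39 to 43 reads, with every ESC + F/H-BAZ2ArΔTAM library above every ESC + F/H-BAZ2ArWT library and a log2 fold change of 0.38 (limma adjusted p = 0.0574). *Dab2*, under the filter, had 0 to 3 against 4 to 10 reads, also without overlap, and *Cubn* 5 reads in all against 20. *Foxa2* and *Sox7* were at or near 0. Of 8 neural progenitor markers, 3 were tested, 1 was higher and 2 were lower, with sums of 4.78 to 5.75 RPM and 2.94 to 3.21 RPM, *Nes* at a log2 fold change of -0.97 (limma adjusted p = 5.23e-08), *Sox1* at -0.85 (limma adjusted p = 0.00267), *Sox3* at 0.76 (limma adjusted p = 0.0345, 8 to 20 against 12 to 37 reads, which overlap) and *Olig2* and *Neurog2* at or near 0. Of 8 ESC markers, 4 were lower, *Sox2* by -0.42 on the log2 scale (limma adjusted p = 4.01e-09). Fibroblast markers, which would show feeder cells, summed to between 3.63 and 4.20 RPM and between 3.52 and 4.67 RPM, nearly all from *Pdgfrb*, and *Col3a1*, *Lum* and *Dcn* were at 0 in all 8 libraries.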

How the data were processed

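Poly(A)-enriched RNA of 8 libraries was sequenced with a stranded kit. Per the labels and methods, the authors trimmed reads (Trimmomatic 0.36 in the labels' processing notes), removed ribosomal RNA reads, mapped with STAR to mm10 and computed exon coverage per gene. They deposited RPKM per library, without pooling. The use of strand, the treatment of reads with several map positions and the annotation release are not stated, so overlapping genes and close paralogs are uncertain.

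The deposited RPKM times the span of the gene gave RPM, and between 99.3% and 99.6% of values were whole reads within 0.05 of a read. Of 51288 entries, 387 repeats of a symbol were set aside. This scale was preferred to RPKM with a common filter because span-based RPKM drops long genes such as *Aldh1a2*. Genes with a mean of at least 0.2 RPM (8.76 to 11.6 reads per library) were tested with limma 3.58.1 in R 4.3.3 (lmFit, eBayes with trend, no covariates) on log2(RPM + 0.05), with Benjamini-Hochberg adjustment over all genes tested. Genes under the filter and shares of reads were compared with the two-sided exact permutation test in Python 3.11.15 with SciPy 1.17.1. Exon lengths and identifiers came from GENCODE release M21, whose coordinates were the same for 8 of the 9 genes. The procedure was tested on simulated data with a low spread between libraries. Recovery of changed genes was required there only for genes with many reads.

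The genes named are the 9 genes, *Baz2a*, from each pathway list the 2 with the largest change at an adjusted p under 0.05, from each marker list the 1 with the largest, and the 3 genes closest to *Stra8* and to *Crabp1*. The rule takes in 3 more genes, which are part of the counts over lists but are not reported here. A few others (*Rdh10*, *Aldh1a1*, *Rxra*, *Rxrb*, *Nr2c2*, *Cyp26b1*, *Cyp26c1*, *Rec8*, *Gm4969*, *Sox1*, *Sox3*, *Gata4*, *Dab2*, *Cubn*, *Pdgfrb*, *Top2b* and single markers at or near 0) were named after their values were seen. The 9 genes and the lists were chosen with earlier results of these data known. Alternatives changed the pseudocount, filter, unit, scaling, trend, replicate block, count model (voom) and each library in turn.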

Additional observations from a re-analysis of the deposited data

Results flagged for a closer look

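Of 56 sets of 4 libraries checked with Dixon's test at the 95% level, 4 held a library far from the others, and chance gives about 1 in 20. *Cyp26a1* had 0.0388 RPM in ESC + F/H-BAZ2ArWT replicate 2, from 2 reads, and 0 in the other libraries of that line. *Rdh12* had 0.246 RPM in ESC + F/H-BAZ2ArWT replicate 3, from 12 reads, against 0.302 to 0.311 RPM in the others. *Tgm2* had 3.88 RPM in ESC + F/H-BAZ2ArWT replicate 3 against 4.24 to 4.25 RPM. *Zscan4c* had 0.310 RPM in ESC + F/H-BAZ2ArWT replicate 4, from 16 reads, against 0.214 to 0.226 RPM.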

How the results depend on the processing

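Over 17 alternative settings, the log2 fold changes of *Stra8*, *Aldh1a2*, *Dhrs3*, *Crabp1* and *Rara* kept their direction and an adjusted p under 0.05 from limma wherever the gene was tested, and that of *Rarg* kept its direction but not its call. On the deposited RPKM + 0.1 with a mean of at least 0.1 RPKM, which leaves out *Aldh1a2*, *Dhrs3* and *Crabp2* and tests fewer genes, 1 of the 9 genes was higher in place of 4 and 1 passed the thresholds of the study in place of 4, while 6 pathway genes were lower in place of 16, and 1792 of all genes were higher in place of 2721 and 1436 lower in place of 2765. With a mean of at least 1 RPM, 10 pathway genes were lower. *Crabp2* turned from -0.014 to 0.014 with a pseudocount of 0.2 RPM, to 0.00027 with voom, and to 0.016, 0.11 and 0.32 without ESC + F/H-BAZ2ArWT replicate 3, replicate 4 and ESC + F/H-BAZ2ArΔTAM replicate 1, over a range of -0.16 to 0.32 with 1 library left out. The difference of *Cyp26a1* turned to 0.00899 RPM without ESC + F/H-BAZ2ArWT replicate 2 and to 0.00228 RPM without ESC + F/H-BAZ2ArΔTAM replicate 1 or 2, and ran from -0.00397 to 0.00899 RPM. The cause of these reversals was not tested. With each library left out in turn, 3 to 4 of the 9 genes were higher and 3 to 4 passed the thresholds of the study, 5 to 6 pathway genes were higher and 11 to 16 lower, and 2379 to 2669 of all genes were higher and 2393 to 2772 lower. The share of *Rara* changed by -7.27 to -5.94 percentage points, each with p = 0.0571, the smallest that the exact permutation test allows for 3 against 4 libraries.

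With the replicate number as a block, 2869 of all genes were higher and 2950 lower, and no call among the 9 genes changed. Libraries with the same replicate number correlated at 0.0557 to 0.0860 in their deviations from the line means, against -0.141 to 0.114 for other pairs. These few correlations cannot decide whether libraries of the same number share more than that number. The values of *Crabp2*, *Rarb* and *Cyp26a1* are limited by depth.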
